A study of Saccharomyces cerevisiae with 6 samples.

Results

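The proteins of the respiratory chain and of ATP synthase that are encoded in the nucleus of Saccharomyces cerevisiae, together with the Hap complex that switches on many of their genes, are described here from their messenger RNA. The set was defined by name and holds 39 genes, each matched to 1 array probe by its systematic name, out of 6256 genes on the array. It comprises 12 subunits of ATP synthase, 9 of cytochrome oxidase, 9 of the bc1 complex, 2 forms of cytochrome c, 3 NADH dehydrogenases and HAP2 to HAP5. BY4741 strains were compared after 6 h in 80 g/l xylose: one lacking PHO80 and the wild type, with 3 Cy3 arrays per strain. The titles of all samples call them xylose fermentations. Pho80 is the cyclin that directs the kinase Pho85 against the phosphate-response activator Pho4. The labels name 1 deletion strain and do not say how many transformants or cultures stand behind the arrays.

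In yeast, NADH dehydrogenases and succinate dehydrogenase feed electrons to coenzyme Q, the bc1 complex passes them to cytochrome c, and cytochrome oxidase hands them to oxygen. The protons pumped on the way drive ATP synthase, whose F1 head makes ATP while its membrane part turns. The core of the pumping complexes comes from mitochondrial DNA and the remaining subunits from nuclear genes, so each complex is built from both genomes. Hap2, Hap3 and Hap5 bind CCAAT elements in many of these nuclear promoters, and Hap4, whose gene is repressed by glucose, supplies the activation domain.

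All values below are log2 processed signals relative to the 75th percentile of their array, called scaled signal, and every difference is deletion minus wild type. That percentile lay between 2404 and 5011 intensity units, 92.01% to 94.6% of probes were well above background, and 0 spots were saturated. Within each strain, arrays 1 and 3 were as close as the 7 repeated spots of a probe, and their mean entered as a single sample beside array 2 (n = 2 samples per strain). Deletion array 2 stood far from its companions: its gap to their mean had a median size of 0.40 over the 39 genes (0.39 over all tested genes), against 0.024 for wild-type array 2 (0.030 over all tested genes). The 3 arrays of a strain shared a slide and a scan that held no array of the other strain, so a slide effect and the strain effect cannot be told apart. PHO80 read -9.41, -9.85 and -9.96 on the deletion arrays, never well above background, and -2.93, -2.83 and -2.86 on the wild-type arrays, a deficit of at least 27.4-fold (limma adjusted p = 0.00153). Of the markers that BY4741 lacks, HIS3, LEU2 and MET17 were not well above background on any array, but URA3 was bright in both strains (6.11, 5.55 and 5.90 in the deletion strain and 3.79, 3.74 and 3.75 in wild type). The arrays measure RNA of whole cultures, so fewer cells expressing a gene and less RNA per cell cannot be told apart.

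Nuclear genes of the ATP-making and electron-passing machinery were split between falls and rises. The ATP synthase genes fell or were not called, the 4 HAP genes and both cytochrome c genes rose, and the bc1 complex, cytochrome oxidase and the NADH dehydrogenases had genes moving each way. All 39 genes were well above background on all 6 arrays and all were tested. At an adjusted p under 0.05 by limma (Benjamini-Hochberg over 5863 genes), 25 of them were called (53.8% of all tested genes were). Of the 39, 16 were lower (41.0%) and 9 higher (23.1%), where 34.6% of all tested genes were lower and 19.2% higher. The shares thus lay near those of the array as a whole. Those all-gene shares moved with the setting, against which the counts below are to be read: 26.3% higher and 25.8% lower with median centring, 27.5% and 24.6% with quantile normalization, 8.92% and 19.1% when wild-type array 2 was left out, and 37.5% and 56.1% when deletion array 2 was. The median log2 fold change was -0.51, against -0.28 for all tested genes. Without the HAP genes it was -0.63 over 35 genes, with 5 higher and 16 lower. Since the median of all genes was 0.012 with median centring and 0.030 with quantile normalization, values of groups are also given relative to it.

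**Figure D1:**
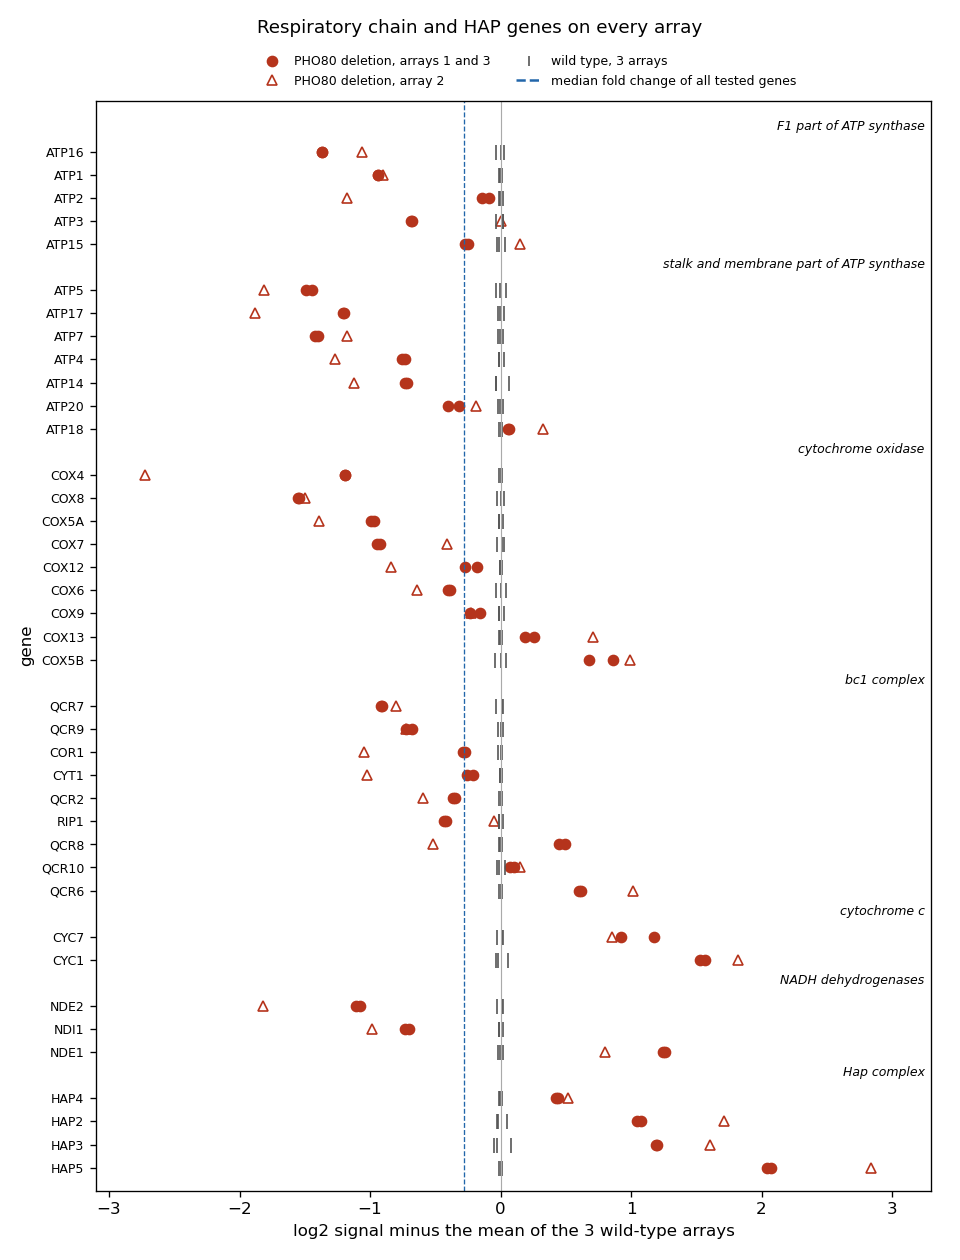
Scaled log2 signal of the 39 genes on each array, minus the mean of the 3 wild-type arrays (x axis), by role group. Filled circles are deletion arrays 1 and 3, open triangles deletion array 2, grey bars the 3 wild-type arrays and the dashed line the median fold change of all tested genes at -0.28. The wild-type bars span at most 0.14, whereas deletion array 2 often lies apart from arrays 1 and 3, by -1.53 for COX4.

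In the plot of the genes on each array, 36 of the 39 genes had all 3 deletion arrays outside the wild-type range (92.3%, against 82.0% of all tested genes). On 24 the deletion arrays lay below that range (61.5%, against 50.9%) and on 12 above it (30.8%, against 31.1%). The 3 with overlapping arrays were ATP3, ATP15 and QCR8, named after their values were seen. They were also the 3 whose deletion samples lay on opposite sides of wild type: QCR8, a small bc1 subunit, read 2.81, 1.79 and 2.76 in the deletion strain and 2.31, 2.33 and 2.30 in wild type. Its array 2 was low and its arrays 1 and 3 were high. The smallest and largest spans among the deletion arrays of a gene were 0.040 (ATP1) and 1.53 (COX4), and the median standard deviation among spots of one probe was 0.054 for these genes.

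The calls rested on array 2 of each strain, because its absence leaves 1 sample in that strain. Only the other strain then shows a spread. Without wild-type array 2, limma also set each gene's own spread aside for a common value of genes with like signal. Calls held or lost in that fit, here and below, thus mainly follow the size of the difference and not how well arrays agree. Without wild-type array 2, the calls of ATP5, ATP7, ATP16, ATP17, COX4, COX5A, COX8 and NDE2 (lower) and CYC1, HAP2, HAP3 and HAP5 (higher) held. COX4 held although its standard error in the reported fit was 0.56, whereas ATP1 did not with 0.11. The same genes held with the wild-type arrays counted as 1 sample, a fit that uses a common spread too. Without deletion array 2 the spread came from the wild-type arrays alone, near spot noise, and all 39 genes passed (13 higher, 26 lower), so those p-values carry no weight for a difference between cultures.

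The F1 head of ATP synthase had 2 of its 5 genes lower and none higher, a lower share of 40.0% near the 34.6% of all genes. The largest fall was that of ATP16 (YDL004W), the delta subunit of the central stalk. It read -0.060, 0.25 and -0.058 on the deletion arrays and 1.32, 1.34 and 1.28 on the wild-type arrays. All deletion arrays lay below all wild-type arrays, and the log2 fold change was -1.23 ± 0.15 (SE, adjusted p = 0.00657). ATP1, the alpha subunit, fell to 1.45, 1.49 and 1.45, against 2.40, 2.38 and 2.38 in wild type (-0.92 ± 0.11, adjusted p = 0.00593), with hardly any spread in either strain. ATP2, the catalytic beta subunit, had a similar mean difference of -0.65 but did not pass (adjusted p = 0.231). Its deletion arrays 1 and 3 lay -0.12 and its array 2 -1.18 from wild type. The gamma subunit gene ATP3 and the epsilon subunit gene ATP15 had differences of -0.33 and -0.049 and did not pass either.

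Of the peripheral stalk and membrane part 5 of 7 genes were lower and none was higher. ATP5 (YDR298C), the oligomycin sensitivity protein that ties the stalk to the F1 head, read -1.96, -2.28 and -1.92 in the deletion strain and -0.48, -0.43 and -0.50 in wild type. The strains were far apart (-1.65 ± 0.16, adjusted p = 0.00472), a 3.13-fold lower signal in the deletion strain. ATP17, subunit f, fell by 1.55, the stalk genes ATP7 (subunit d) and ATP4 (subunit b) by 1.29 and 1.01, and ATP14 (subunit h) by 0.94 on the log2 scale (adjusted p 0.00507 to 0.0231). ATP20 (subunit g, which helps the enzyme form dimers) and ATP18 (subunit i/j) had differences of -0.28 and 0.20 and were not called. Over both parts of ATP synthase 7 of 12 genes fell (58.3%, against the 34.6% of all genes) and the median was -0.93, which is -0.65 relative to all genes (-0.997 with quantile normalization). The count was also 7 with median centring and 8 with quantile normalization, but 4 without wild-type array 2. Without deletion array 2 it was 11 lower and 1 higher.

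Cytochrome oxidase had 4 lower genes and 1 higher gene of 9 (44.4% and 11.1%, against 34.6% and 19.2% of all genes). The oxygen-regulated pair COX5A and COX5B, alternative forms of one subunit of which the first is used in air and the second when oxygen or heme is short, went in opposite directions. COX5A (YNL052W) read 0.53, 0.13 and 0.55 in the deletion strain, against 1.54, 1.51 and 1.51 in wild type. COX5B (YIL111W) read 5.17, 5.30 and 4.98 in the deletion strain, against 4.27, 4.31 and 4.35 in wild type. The arrays of the strains did not overlap for either gene, and both differences passed. COX5A fell by 1.18 ± 0.18 (adjusted p = 0.0103) and COX5B rose by 0.88 ± 0.15 (adjusted p = 0.0140). The rise of COX5B was also 0.88 without wild-type array 2, but its call was lost in that fit, which sets a gene's own spread aside. COX5B gave the brighter signal in both strains, but signals of different probes were not compared for level. The pair share sequence and the probe sequences were not used here. Cross-hybridisation was thus not tested for them, nor for the cytochrome c and external NADH dehydrogenase pairs below.

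COX4 (YGL187C), a zinc-binding subunit needed to assemble the enzyme, had the largest fitted fall of the 39 genes but also the widest spread. It read -0.79, -2.32 and -0.79 on the deletion arrays and 0.40, 0.39 and 0.41 on the wild-type arrays. Arrays 1 and 3 were near each other and array 2 was far lower, which left a difference of -1.96 ± 0.56 (adjusted p = 0.0475). The call was lost with median centring (adjusted p = 0.0563). COX8, a small membrane subunit, fell by a tighter 1.53 ± 0.10 (adjusted p = 0.00301): its deletion arrays read -0.40, -0.34 and -0.39 and its wild-type arrays 1.13, 1.17 and 1.15. COX6, a subunit on the matrix face, fell by 0.51 (adjusted p = 0.0434), a call lost with median centring, with normexp background correction and without wild-type array 2. The small subunits COX7, COX12, COX9 and COX13 had differences of -0.68, -0.53, -0.22 and 0.46 and did not pass. The median of the complex lay -0.25 relative to all genes but -0.96 with quantile normalization, where 1 gene was higher and 7 were lower. With median centring 1 was higher and 2 lower, without wild-type array 2 none and 3, and without deletion array 2 the counts were 2 and 7.

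In the bc1 complex 3 of 9 genes were lower and 1 was higher (33.3% and 11.1%), no larger shares than the 34.6% and 19.2% of all genes. QCR7 (YDR529C), a subunit on the matrix side, fell to 2.98, 3.10 and 2.99 in the deletion strain, against 3.91, 3.86 and 3.91 in wild type. The log2 fold change was -0.85 ± 0.12 (adjusted p = 0.00957). QCR6 (YFR033C), the acidic subunit next to cytochrome c1, was the exception and read 3.66, 4.05 and 3.64 in the deletion strain and 3.04, 3.03 and 3.05 in wild type. It rose by 0.81 ± 0.18 (adjusted p = 0.0273). QCR9, a small subunit, and QCR2, a core protein, fell by 0.72 and 0.48 (adjusted p = 0.0107 and 0.0455). All 3 lower genes lost their call with median centring (limma, 0 lower and 1 higher, with 2 lower at an unadjusted p under 0.05). Without wild-type array 2 every call of the complex was lost, in the fit that sets a gene's own spread aside. The fitted differences were then -0.87 for QCR7 and 0.81 for QCR6. The redox subunits CYT1 (cytochrome c1) and RIP1 (the Rieske iron-sulfur protein) had differences of -0.63 and -0.24, the core protein gene COR1 -0.66, QCR10 0.11 and QCR8 -0.028, and none of these 5 passed. COR1 and CYT1 were lowest on deletion array 2, at -1.04 and -1.03 from wild type, against -0.27 and -0.24 on arrays 1 and 3. Without deletion array 2 the complex had 3 higher and 6 lower genes and its median lay -0.029 relative to all genes, against -0.20 with all arrays.

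Both forms of cytochrome c, the mobile carrier between the bc1 complex and cytochrome oxidase, were higher, as were 19.2% of all tested genes. CYC1 (YJR048W), the main form in air, read 0.20, 0.49 and 0.24 in the deletion strain and -1.27, -1.37 and -1.35 in wild type. It rose by 1.69 ± 0.14, or 3.23-fold (adjusted p = 0.00362). CYC7 (YEL039C), the minor form favoured at low oxygen, read 5.94, 5.62 and 5.69 in the deletion strain and 4.74, 4.78 and 4.78 in wild type, all deletion arrays above all wild-type arrays. Its rise of 0.95 ± 0.15 (adjusted p = 0.0121) was 0.67 and not called with quantile normalization (adjusted p = 0.0706). Without wild-type array 2 it was 0.96 and its call was lost, in the fit that sets a gene's own spread aside. In contrast to the subunit 5 pair of cytochrome oxidase, the aerobic and the hypoxic form thus moved the same way. CYC7, the minor form, gave the brighter signal in both strains, but signals of different probes were not compared for level.

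Yeast has no proton-pumping complex I and uses single-protein NADH dehydrogenases in its place. NDI1 (YML120C), which oxidises NADH of the mitochondrial matrix, read -0.55, -0.83 and -0.58 in the deletion strain and 0.17, 0.14 and 0.14 in wild type. NDE1 (YMR145C), the main dehydrogenase facing the cytosolic side, read 3.31, 2.87 and 3.33 in the deletion strain and 2.06, 2.05 and 2.08 in wild type. NDE2 (YDL085W), its paralog, read -3.53, -4.28 and -3.57 in the deletion strain and -2.49, -2.45 and -2.44 in wild type. No arrays of the strains overlapped for any of them, as for 82.0% of all tested genes, with NDE1 higher and NDI1 and NDE2 lower. Of all tested genes 19.2% were called higher and 34.6% lower. The differences were -0.85 ± 0.14 for NDI1 (adjusted p = 0.0127), 1.03 ± 0.19 for NDE1 (adjusted p = 0.0171) and -1.46 ± 0.29 for NDE2 (adjusted p = 0.0192). NDI1 and NDE1 were not called without wild-type array 2 (adjusted p = 0.144 and 0.101), nor NDE1 with quantile normalization (0.72, adjusted p = 0.0574). The fall of NDE2 was -0.69 with quantile normalization.

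All 4 genes of the Hap complex rose, where 19.2% of all tested genes were called higher. HAP5 (YOR358W), a histone-fold subunit of the DNA-binding core, read 0.069, 0.86 and 0.10 in the deletion strain and -1.97, -1.97 and -1.99 in wild type. Its rise of 2.45 ± 0.30 (5.45-fold, adjusted p = 0.00642) was the largest among the 39 genes and stood at the 98.9 percentile of all tested genes. HAP3 (YBL021C), its histone-fold partner, read -0.39, 0.014 and -0.40 in the deletion strain and -1.51, -1.64 and -1.62 in wild type (1.41 ± 0.18, adjusted p = 0.00727). HAP2 (YGL237C), the subunit that reads the CCAAT sequence, read -0.90, -0.27 and -0.94 in the deletion strain and -2.004, -1.93 and -2.002 in wild type (1.37 ± 0.26, adjusted p = 0.0170). For these 3 genes array 2 was the highest deletion array, and arrays 1 and 3 were still above every wild-type array. HAP4 (YKL109W), the activation subunit whose level usually sets the activity of the complex, changed least: it read 2.56, 2.63 and 2.54 in the deletion strain and 2.13, 2.11 and 2.11 in wild type. The strains did not overlap, and the rise of 0.48 ± 0.11 passed (adjusted p = 0.0298). It was 0.21 and not called with quantile normalization (adjusted p = 0.109). Without wild-type array 2 it was 0.47 and its call was lost, in the fit that sets a gene's own spread aside. HAP2, HAP3 and HAP5 passed under all 17 alternatives, as did CYC1, ATP5, ATP7, ATP16, ATP17, COX5A, COX8 and NDE2.

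**Figure D2:**
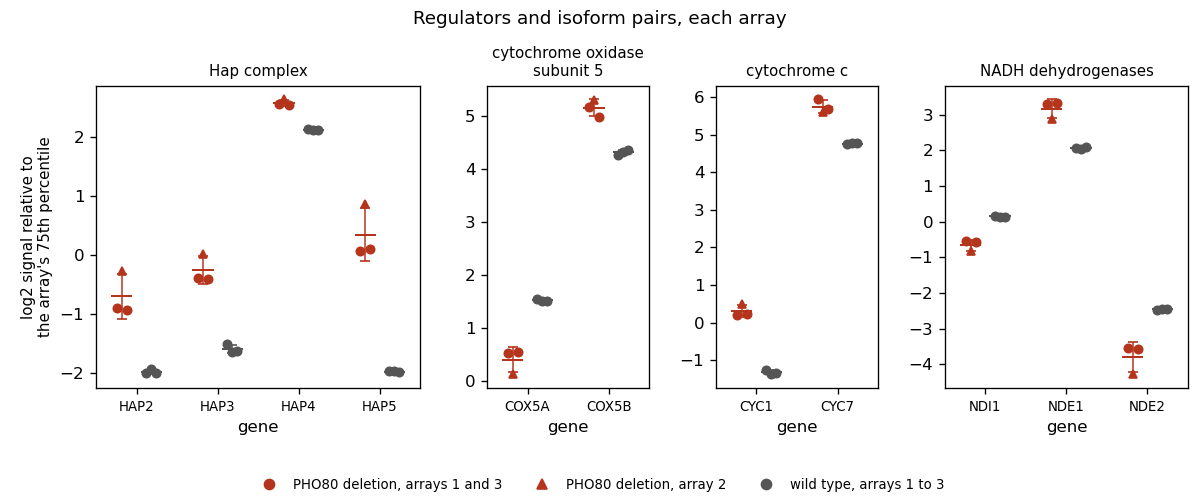
Scaled log2 signal (y axis, own scale in each panel) of the HAP genes, the cytochrome oxidase subunit 5 pair, the cytochrome c pair and the NADH dehydrogenases. Points are single arrays, lines the mean and bars the SD of the 3 arrays of a strain, of which arrays 1 and 3 are not independent, with the deletion strain left of wild type. HAP5 lies between 0.069 and 0.86 in the deletion strain and near -1.97 in wild type, while COX5A is lower and COX5B higher in the deletion strain.

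The plot of role groups under other settings shows the group medians relative to all genes. Those of the Hap complex (1.67) and cytochrome c (1.60) were above that of all genes and those of both ATP synthase parts below it under each setting plotted. The HAP median was 1.37 without deletion array 2. The cytochrome oxidase (-0.25) and bc1 (-0.20) medians were also below it under each of these settings.

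**Figure D3:**
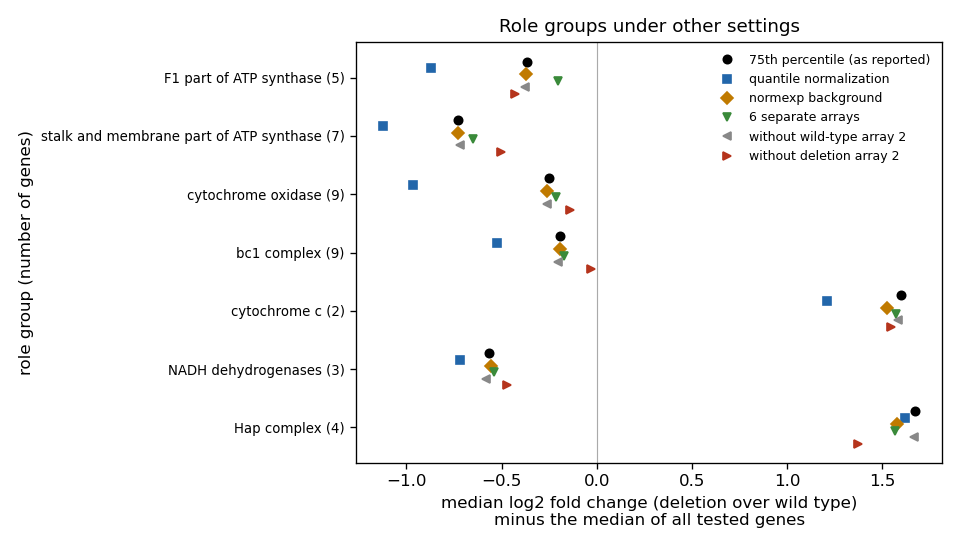
Median log2 fold change of each role group, deletion over wild type, minus the median of all tested genes (x axis), for the reported setting and 5 alternatives (symbols). The Hap complex stays between 1.37 and 1.67 above the median of all genes, whereas cytochrome oxidase runs from -0.14 to -0.96.

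The partner subunits from mitochondrial DNA were almost without signal in the deletion strain. No deletion array rose well above background for COB (cytochrome b), COX1, COX3, ATP6 or ATP8. Their deficits were at least 4635-fold, 1143-fold, 289-fold, 4229-fold and 143-fold, in that order (limma adjusted p 0.000213 to 0.00153). COX2 was above background on all 3 deletion arrays and read -6.12, -6.82 and -5.91 there, and 0.89, 0.90 and 0.88 in wild type. OLI1 (the ATP synthase ring subunit) was above background on 2 of 3 deletion arrays and read -7.81, -7.30 and -7.43 there, against 7.33, 7.31 and 7.46 in wild type. All 7 passed the test and none of the deletion arrays, array 2 included, approached wild type. The nuclear differences ran from -1.96 to 0.88 in cytochrome oxidase, -0.85 to 0.81 in the bc1 complex and -1.65 to 0.20 in ATP synthase. The part of the missing mitochondrial transcripts in the nuclear changes was not tested.

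**Figure D4:**
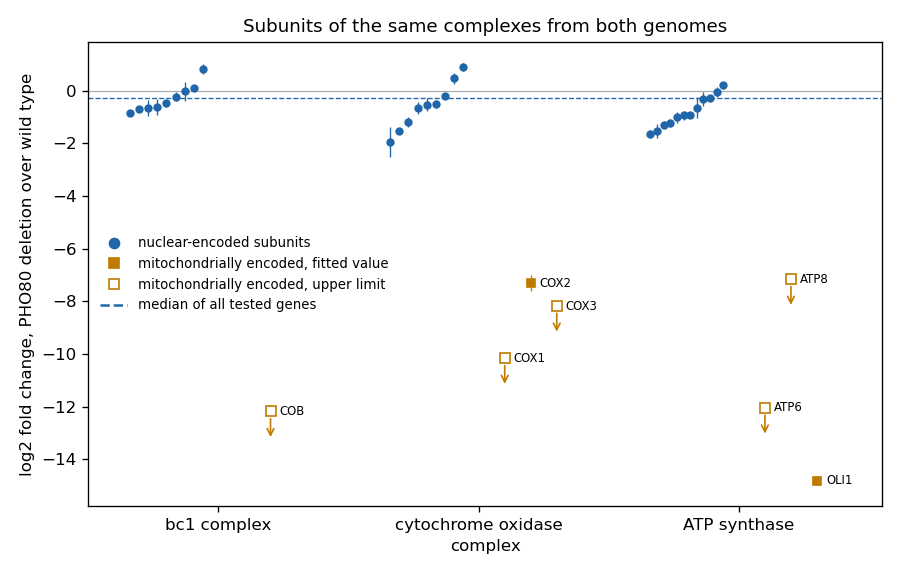
Log2 fold change, deletion over wild type (y axis), of nuclear (circles) and mitochondrially encoded (squares) subunits of 3 complexes. Bars are SE, open squares with arrows are upper limits for genes below background on all deletion arrays, and the dashed line is the median of all tested genes. The mitochondrially encoded genes lie at or below -7.16, and the nuclear ones between -1.96 and 0.88.

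Nuclear genes that build or surround these complexes also moved both ways. Of 38 measured assembly and maturation factors 11 rose and 6 fell (28.9% and 15.8%, against 19.2% and 34.6% of all genes), and their median difference was 0.035, or 0.32 once the median of all genes is taken off. Assembly factors of cytochrome oxidase were 7 higher and 1 lower of 22, among them COX23, a copper-related factor of the intermembrane space, which rose by 2.17 ± 0.12, and COX19, of similar type, which fell by 0.42. The call of COX19 (adjusted p = 0.0482 by limma) was lost under 10 of the 17 alternatives, both other scalings among them. For bc1 assembly 2 of 5 rose (MZM1 by 0.57) and none fell. Cytochrome c maturation had 2 of 3 higher and none lower (CYC2 by 0.80). Of 8 factors that assemble ATP synthase 5 were lower and none higher, led by ATP12, the chaperone of the alpha subunit (-1.25 ± 0.16, a call lost with quantile normalization). Among 4 further ATP synthase subunits and inhibitors 2 were lower and none higher, TIM11 (subunit e) by the most (-1.98 ± 0.44). TIM11 read -0.0097, -1.21 and -0.0046 on the deletion arrays, where array 2 was far lower, and 1.39, 1.36 and 1.39 in wild type. Without wild-type array 2 limma called 1 of the 38 assembly and maturation factors higher, COX23, and 0 lower (3 lower at an unadjusted p under 0.05), and without deletion array 2 the counts were 18 and 14. With median centring they were 12 and 3, 3 of the ATP synthase assembly factors were lower and 1 of the further subunits was.

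Complex II, the succinate dehydrogenase, had 2 of 4 subunit genes lower and none higher, with SDH3, a membrane anchor, at -1.50 ± 0.10. Of all tested genes 34.6% were lower and 19.2% higher. The lower and higher shares were 50% and 0% in complex II, 20% and 10% among coenzyme Q genes and 40% each among the carriers. Of 10 coenzyme Q genes COQ1, which makes the isoprenoid tail, rose by 1.59, and 2 fell, CAT5 (COQ7, a hydroxylase) by the most (-1.001). With median centring the coenzyme Q counts were 4 higher and 1 lower, and complex II had 1 lower gene. Without wild-type array 2 the call of COQ1 held, but limma called 0 coenzyme Q genes lower (2 at an unadjusted p under 0.05), and complex II again had 1 lower gene, SDH3. RCF1, a supercomplex factor, fell by 0.59, and RCF2 was not called (0.24). The call of RCF1 was lost with median centring (adjusted p = 0.108 by limma), where the pair counted 1 higher and 0 lower, and without wild-type array 2 (adjusted p = 0.343). Among the carriers that supply ATP synthase 2 of 5 rose and 2 fell: the main ADP/ATP carrier gene PET9 fell by 0.97 and the phosphate carrier gene MIR1 by 0.65, while its minor counterpart PIC2 rose by 1.42 and the anaerobic ADP/ATP carrier gene AAC3 by 0.47. The call of AAC3 (adjusted p = 0.0496 by limma) was lost under 7 of the 17 alternatives, and that of MIR1 with median centring (adjusted p = 0.117). Without wild-type array 2 limma called 1 carrier gene, PIC2, higher and 0 lower (1 lower at an unadjusted p under 0.05). The heme and oxygen regulator genes HAP1 and ROX1 had differences of -0.0066 and 0.46 and did not pass (adjusted p = 0.971 and 0.197 by limma). The activity of their proteins was not measured.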

How the data were processed

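Total RNA of each sample was labelled with Cy3 and hybridised in 1 colour, per the labels' protocols. Deposited by the authors were linear spot intensities (intensity units) from Agilent Feature Extraction (version 10.1.1.1, per the submitters' processing notes), with the background removed within each array and no scaling between arrays, per the file headers. The authors' value table for the series gives each probe 1 intensity. Compared with the scanner files, its scale was linear, its genes were not centred and its direction was unchanged (Pearson r across probes 0.997 to 0.999 after log2), with column medians of 1120, 746.5 and 1670 in the deletion strain and 1120, 1140 and 950.5 in wild type. Slides and scans were read from the file headers.

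Control and outlier spots were dropped (1.12% to 1.88% of probe spots), and a probe's spots were averaged after log2 and scaling to the 75th percentile of the array. Systematic names were matched to symbols of RefSeq assembly R64 (5756 of 6256 matched). Genes well above background on at least 3 arrays were tested (5863). A probe counted as such where more than 0.5 of its spots carried the flag. Arrays of a strain were averaged as 1 sample where the median squared difference over spot variance did not exceed 0.484, the value spot noise gives (arrays 1 and 3: 0.412 in the deletion strain, 0.435 in wild type). The other pairs gave 88.6 and 94.8 in the deletion strain and 0.634 and 0.669 in wild type. The wild-type spread is thus near spot noise, and p-values measure only the spread between these samples. The test was limma (version 3.58.1, R 4.3.3; moderated, with an intensity trend; 2 residual and 1.93 prior degrees of freedom), Benjamini-Hochberg adjusted, a fit tested on simulated data. An "at least" fold sets the wild-type mean against the deletion mean after raising each array to its lowest signal well above background where the probe read less. Alternatives covered scaling, background, filter, replicates, block, trend, outlier spots, the value table and each left-out array.

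The members, the lists and the rule for averaging arrays were chosen with earlier results of these data known, so no list was tested. Every member is named. Array values are given for the called gene with the largest rise and fall in each role group, the isoform pairs, the NADH dehydrogenases and the HAP genes. From each further list of nuclear genes the largest called rise and fall are given by fold change. MIR1, AAC3 and RCF2, and the array values of ATP1, COX8, QCR8 and TIM11, were added after their values were seen. Promoters and probe sequences were not analysed here. Figures were drawn with matplotlib 3.10.9.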

Additional observations from a re-analysis of the deposited data

How the results depend on the processing

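Over 17 alternatives, 594 of 663 member values kept their direction and side of the threshold, 37 lost and 23 gained a call and 9 changed sign. A value that changed sign was counted only there, whether or not its call changed too. The counts of 9 higher and 16 lower genes fell with the wild type as 1 sample. That fit has 1 residual degree of freedom and uses a common spread for genes of like signal. Leaving out each array in turn gave 4 to 13 higher and 8 to 26 lower genes and a median of -0.26 to -0.11 relative to all genes, the low counts without wild-type array 2 and the high ones without deletion array 2. That median was -0.23 as reported and -0.62 with quantile normalization, where 6 genes were higher and 20 lower; the cause was not tested. Median centring gave 9 and 11, the calls of COX4, COX6, QCR2, QCR7 and QCR9 being lost, and turned the sign of 5 uncalled genes: ATP15 (0.24), ATP20 (0.014), COX9 (0.074), RIP1 (0.056) and QCR8 (0.26). COX13 was -0.044 with quantile normalization. QCR8 was 0.14 with 6 separate arrays, with and without the replicate block, and from -0.041 to 0.47 with 1 array left out, the highest without deletion array 2. Of all tested genes 1123 were higher and 2029 lower as reported, 1540 and 1514 with median centring, 1615 and 1445 with quantile normalization, 519 and 1130 with the wild type as 1 sample, 523 and 1122 when wild-type array 2 was left out, and 2200 and 3289 when deletion array 2 was.

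Replicate numbers did not pair the arrays of the strains: the deviations from the strain means correlated at -0.21, -0.17 and -0.010 for numbers 1, 2 and 3 over 5664 probes. The replicate block on 6 separate arrays gave 9 higher and 18 lower genes, against 9 and 19 without the block. Background correction by normexp used the median spot signal, an alternative chosen after seeing the data, and gave 9 and 15. Signal over background limited none of the 39 genes.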

Other observations

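BY4741 is a strain of mating type a. All 6 listed genes specific to that type (MFA1, MFA2, STE2, STE6, BAR1 and AGA2) were well above background on all arrays of both strains. Of 4 genes specific to mating type alpha, STE3 and SAG1 were also above background on all arrays, and MF(ALPHA)2 on none. The alpha pheromone gene MF(ALPHA)1 was above background on no deletion array (-8.05, -7.85 and -8.09) and on all 3 wild-type arrays (-3.41, -3.37 and -3.39), a deficit of at least 19.1-fold in the deletion strain (limma adjusted p = 0.00221).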
